A study of Mus musculus with 8 samples.

Results

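A set of 10 epithelial genes was followed through the mRNA table of a mouse embryo study. Trp63, Krt5, Krt14, Krt15 and Sfn were taken for stratified epithelium, and Krt8, Krt18 and Krt19 for simple epithelium. Epcam and Cdh1 were grouped apart as genes of epithelium in general. The members were found by matching Ensembl gene IDs to symbols, and all 10 were present among 29639 entries. All 10 also reached 1 FPKM, a length-normalized level, in at least 2 columns, as did 13279 genes in all, counted after entries with the same symbol were summed.

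Whole embryos of 4 genotypes were profiled at embryonic day 12.5, per the design text. Wild-type embryos (WT) carried no insertion. The others carried 3 polyadenylation cassettes, which end transcription early, in the promoter of Gtl2 (Meg3), placed there by Easi-CRISPR on the paternal allele (PKI), the maternal allele (MKI) or both alleles (HOMO). The sample titles agree for WT but read E12.6 for PKI, E12.7 for MKI and E12.8 for HOMO. The labels list 2 samples for each genotype, while the tables give every genotype a single column. Without replicates no test between genotypes was possible, and every difference below is between single columns. How many founder lines, litters or embryos stand behind a column is unknown from the sources used here. The mRNA header names no unit, and values were taken as FPKM, a level normalized for transcript length and library depth.

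The MKI column stood apart. Its Pearson's r with the other columns, on the log2 scale across 13279 genes, was 0.864 to 0.882, while WT, PKI and HOMO correlated with each other at 0.961 to 0.975. On the Y chromosome Uty, Ddx3y, Eif2s3y and Kdm5d had values of 7.12 to 29.7 FPKM in the knock-in columns and 0 in WT, so male RNA was seen in all columns but WT. The part of sex in the differences from WT was not tested. The depth of the mRNA table is unknown, and the small-RNA table holds 8016848 to 10072670 reads per column.

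Skin starts as a single layer of surface ectoderm that makes the simple keratins Krt8, Krt18 and Krt19. When p63, the transcription factor encoded by Trp63, is switched on, the layer becomes committed to a stratified fate, and basal cells make the filament partners Krt5 (type II) and Krt14 (type I). Simple epithelia such as gut, lung, kidney ducts and mesothelium keep Krt8 with Krt18. Cdh1 (E-cadherin) holds cells of either kind together, and Epcam is a cell adhesion protein of epithelia. MicroRNAs of the miR-200 family, miR-203 and miR-205 are known from epithelia: the miR-200 family represses Zeb1 and Zeb2, themselves repressors of Cdh1, and miR-203 represses p63 as epidermal cells differentiate.

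Those microRNAs are a readout of epithelium that does not depend on the mRNA table. Their mature sequences are shown because the seed, bases 2 to 8 in capitals, sorts them into 4 groups. Sequences are from RefSeq (GRCm38.p6). The first group shares the seed AAUACUG.
miR-200b-3p: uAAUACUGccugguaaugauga
miR-200c-3p: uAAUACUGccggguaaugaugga
miR-429-3p: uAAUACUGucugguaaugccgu
The second group, with the seed AACACUG, differs from it at 1 base.
miR-200a-3p: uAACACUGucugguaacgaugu
miR-141-3p: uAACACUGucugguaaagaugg
The last 2 have seeds of their own.
miR-203-3p: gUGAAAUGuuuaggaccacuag
miR-205-5p: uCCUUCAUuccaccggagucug
miR-200b, miR-200a and miR-429 lie together on chromosome 4, and miR-200c and miR-141 on chromosome 6. miR-205-5p lies at chr1:193507503-193507524 (minus strand). miR-203-3p lies at chr12:112130927-112130948 (plus strand), on the chromosome of the Dlk1-Dio3 domain but outside it.

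Promoter windows were read for the members whose RefSeq entry ended at the outer end of the gene, which were 5 of 10: Krt5, Sfn, Krt8, Krt18 and Epcam. They are shown because all 5 hold a sequence that the choice of members did not use. The 250 bases before the start each contain at least 1 E-box of the kind bound by SNAI and ZEB repressors, CACCTG or its reverse complement CAGGTG, printed in capitals.
Krt5 (chr15:101712906-101713155, minus strand): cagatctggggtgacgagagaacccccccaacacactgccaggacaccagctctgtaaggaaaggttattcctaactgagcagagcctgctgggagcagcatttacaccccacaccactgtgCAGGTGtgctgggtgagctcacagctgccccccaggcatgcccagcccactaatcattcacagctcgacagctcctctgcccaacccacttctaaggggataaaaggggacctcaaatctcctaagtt
Sfn (chr4:133602169-133602418, minus strand): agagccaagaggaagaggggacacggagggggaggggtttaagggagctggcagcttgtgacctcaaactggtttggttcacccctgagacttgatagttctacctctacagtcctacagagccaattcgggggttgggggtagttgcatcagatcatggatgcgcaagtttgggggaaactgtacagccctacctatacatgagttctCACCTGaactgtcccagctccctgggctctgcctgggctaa
Krt8 (chr15:102004343-102004592, minus strand): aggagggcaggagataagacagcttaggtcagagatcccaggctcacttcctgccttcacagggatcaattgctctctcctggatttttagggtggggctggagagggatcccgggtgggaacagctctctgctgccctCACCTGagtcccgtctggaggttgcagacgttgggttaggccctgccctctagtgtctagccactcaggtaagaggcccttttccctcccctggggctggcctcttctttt
Krt18 (chr15:102027966-102028215, plus strand): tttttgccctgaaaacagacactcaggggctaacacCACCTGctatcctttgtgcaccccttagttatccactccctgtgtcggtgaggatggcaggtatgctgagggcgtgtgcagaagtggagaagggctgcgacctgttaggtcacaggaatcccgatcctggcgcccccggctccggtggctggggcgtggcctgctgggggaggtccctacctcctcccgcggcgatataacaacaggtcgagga
Epcam (chr17:87635729-87635978, plus strand): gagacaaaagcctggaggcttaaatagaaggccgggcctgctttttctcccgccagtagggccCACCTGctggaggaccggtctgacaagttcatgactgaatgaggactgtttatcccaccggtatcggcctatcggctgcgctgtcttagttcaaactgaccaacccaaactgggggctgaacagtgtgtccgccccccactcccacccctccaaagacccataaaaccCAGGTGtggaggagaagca
The same letters were found on either strand in 17.2% of 19827 windows of that length, and in 13.8% of the 5142 windows that belong to genes past the filter. The E-box began 128 bases before the start in Krt5, 41 in Sfn, 111 in Krt8, 214 in Krt18, and 187 and 19 in Epcam. None overlapped a match to another of the 5 motifs searched. GCCNNNGGC, the AP-2 motif, was found in Krt18 only among the 5, against 11.7% of all windows and 19.99% of those of genes past the filter. The SP/KLF box GGGCGG was found in Epcam only, against 26.8% and 59.8%. The TATA box TATAAA (14.9% and 6.71%) and the grainyhead motif AACCGG (4.92% and 9.47%) were found in none of these windows. A match shows letters in a window and is not evidence of binding.

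Among the stratified genes the PKI column was the highest for every member. Trp63 (chromosome 16, 25683763 to 25892088, GRCm38) stood at 2.55 FPKM in WT, against 6.29 in PKI, 3.57 in MKI and 2.56 in HOMO. PKI was thus 2.47-fold above WT, MKI lay between them, and HOMO, which carries the paternal insertion too, was level with WT. Krt5 (chromosome 15, 101707069 to 101712905), the basal type II keratin, was the most abundant member per length in WT, at 13.6 FPKM. It stood at 32.4 FPKM in PKI, 11.8 in MKI and 12.4 in HOMO. Only its PKI column stood away from the others, at 2.38-fold WT.

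Krt14 (chromosome 11, 100203162 to 100207510), the type I partner of Krt5, stood at 7.23 FPKM in WT and 15.0 in PKI, with 0.905 in MKI and 6.24 in HOMO. It was 2.07-fold higher than WT in PKI and 7.99-fold lower in MKI, the widest range of any member (16.6-fold from highest to lowest column). Krt14 has close copies in Krt16 and Krt17, and how reads were divided among them is uncertain. Krt15 (chromosome 11, 100131759 to 100135949), another basal type I keratin, stood at 3.22 FPKM in WT and 7.34 in PKI, with 2.15 in MKI and 4.18 in HOMO. Its PKI column was highest and its MKI column lowest, as for Krt14, over a smaller range. Sfn (chromosome 4, 133600556 to 133602168), encoding the adaptor protein 14-3-3 sigma of stratified epithelia, stood at 2.02, 4.11, 0.629 and 2.30 FPKM in the same order of columns. It too was highest in PKI and lowest in MKI, 3.21-fold below WT.

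The simple keratins had no such common order. Krt8 (chromosome 15, 101996711 to 102004342), the type II keratin of simple epithelia, stood at 5.94 FPKM in WT, against 7.94 in PKI, 3.80 in MKI and 8.57 in HOMO. Krt18 (chromosome 15, 102028216 to 102032026), its type I partner, was the flattest member, at 9.85, 9.25, 9.94 and 12.82 FPKM in the same order of columns, with 1.39-fold between its highest and lowest column. Krt19 (chromosome 11, 100140810 to 100145926) stood at 2.90, 5.57, 4.74 and 4.99 FPKM, lowest in WT and close together in the 3 knock-in columns. HOMO was above WT for all 3, by between 1.301-fold (Krt18) and 1.72-fold (Krt19).

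The genes grouped as those of epithelium in general had columns ordered much as those of Trp63. Epcam (chromosome 17, 87635979 to 87651127), a cell adhesion protein, stood at 4.31 FPKM in WT and 7.82 in PKI, with 6.08 in MKI and 4.55 in HOMO. Cdh1 (chromosome 8, 106603350 to 106670247), the adherens junction cadherin, stood at 3.41, 6.63, 4.02 and 3.12 FPKM. Both were highest in PKI, with MKI second and HOMO near WT. In whole embryos, fewer cells of a type and less RNA per cell cannot be told apart. In the plot of levels by gene these orders can be read for each member.

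**Figure D1:**
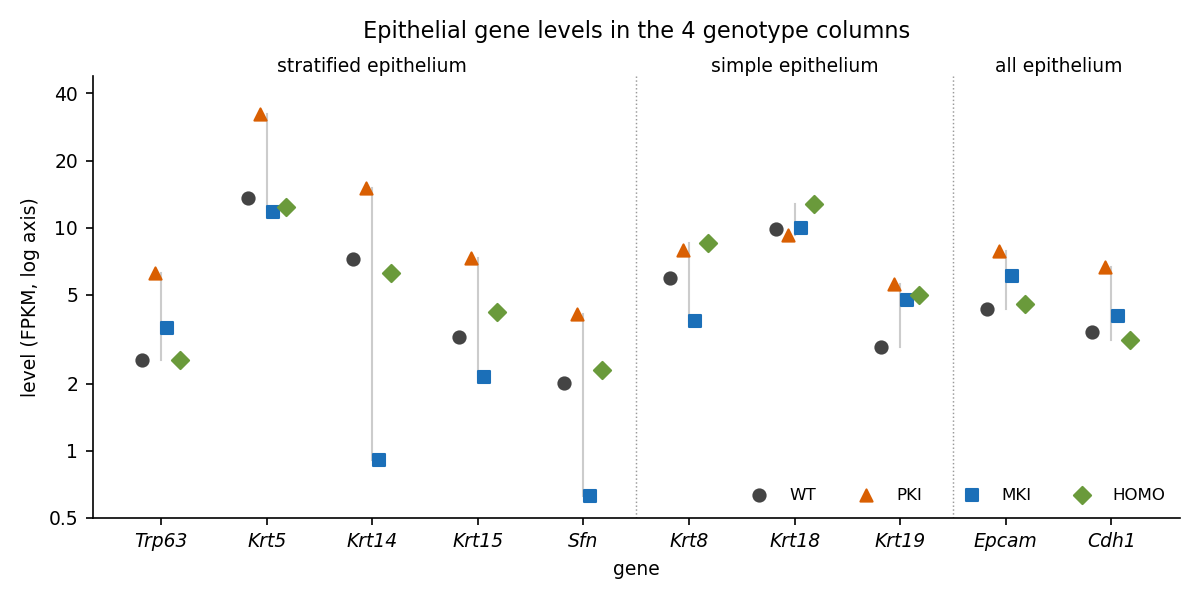
Level of each gene in FPKM (log axis) in the 4 genotype columns, 1 point per column and no error because there are no replicates; grey lines join the lowest and highest column. PKI is the highest column for all 5 stratified genes, and Krt14 and Sfn are lowest in MKI, at 0.905 and 0.629 FPKM.

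Differences between columns were taken on the log2(FPKM + 0.5) scale, which understates changes of low genes, and called where they reached 2-fold on that scale. For PKI against WT 4 of the 10 members were called higher, Trp63 (log2 difference 1.16), Krt5 (1.22), Krt14 (1.00) and Krt15 (1.07), and none lower. Of all 13279 genes 0.7% were called higher and 1.45% lower. The median over the 5 stratified members was 1.07, against 0.39 over the 3 simple keratins and -0.07 over all genes. Sfn (0.87), Cdh1 (0.87), Krt19 (0.83) and Epcam (0.79) lay close below the threshold. Krt8 (0.39) and Krt18 (-0.09) lay nearer WT, and Krt18 was at 0.02 under scaling by trimmed means (TMM). With a pseudocount of 1, or with columns scaled to the same sum, 2 members (Trp63 and Krt5) stayed past the threshold in place of 4, and the stratified median was 0.98 and 0.99.

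For MKI against WT no member was called higher and 2 were called lower, Krt14 (-2.46) and Sfn (-1.16), where 1.22% of all genes were called higher and 19.1% lower. The share of members called was thus near that of all genes, and only Krt14 was left with a pseudocount of 1 or under quantile normalization, which put Krt19 past the threshold at 1.03. The stratified median was -0.49, with Krt15 at -0.49, Krt5 at -0.20 and Trp63 at 0.42. The simple median was 0.01, between Krt8 (-0.58) and Krt19 (0.62), and Epcam (0.45) and Cdh1 (0.21) lay above WT. For HOMO against WT no member was called in either direction, where 0.67% of all genes were called higher and 0.783% lower. The stratified median was 0.01 and the simple median 0.49.

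The remaining comparisons place the knock-in columns against each other. In HOMO against PKI, Trp63 (-1.15), Krt5 (-1.35) and Krt14 (-1.20) were called lower, 3 of 10 where 1.32% of all genes were lower and 1.55% higher, and the simple median was 0.10. In MKI against PKI, Krt5 (-1.42), Krt14 (-3.46), Krt15 (-1.57) and Sfn (-2.03) were called lower, 4 of 10 where 16.6% of all genes were lower and 2.55% higher. In HOMO against MKI, Krt14 (2.26), Sfn (1.31) and Krt8 (1.08) were called higher, 3 of 10 where 19.7% of all genes were higher and 3.64% lower. Krt8 was below the threshold there with a pseudocount of 1 and under 2 of the 3 scalings. The paternal insertion can be compared on both maternal backgrounds without a shared column. Trp63 differed by 1.16 between PKI and WT and by -0.41 between HOMO and MKI, Krt5 by 1.22 and 0.07, and Krt15 by 1.07 and 0.82. Krt14 (1.00 and 2.26), Sfn (0.87 and 1.31) and Krt8 (0.39 and 1.08) had the larger value between HOMO and MKI. These 3, Krt5 and Krt15 are in the shortest quintile of genes by genomic span. The median of that quintile was 0.70 between HOMO and MKI and 0.05 between PKI and WT. The difference between backgrounds was not tested. Krt5 in HOMO against MKI was at -0.10 under quantile normalization, so its sign there depends on the scaling.

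Ratios within a column do not depend on how columns are scaled to each other. The sum of Krt5, Krt14 and Krt15 over the sum of Krt8, Krt18 and Krt19 was 1.29 in WT and 2.41 in PKI, but 0.804 in MKI and 0.866 in HOMO. MKI and HOMO reached low ratios through different terms. In MKI the stratified sum was lower than in WT (14.9 against 24.1 FPKM) at a like simple sum (18.5 against 18.7 FPKM). In HOMO the stratified sum was near WT (22.8 FPKM) and the simple sum higher (26.4 FPKM).

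Filament partners kept to each other unequally. Krt14 over Krt5 was 0.532 in WT, 0.463 in PKI and 0.502 in HOMO, but 0.0766 in MKI. WT, PKI and HOMO thus held the partners near the same ratio, and MKI stood alone. Krt5 over Trp63 was 5.34 in WT and 5.15 in PKI, with 3.31 in MKI and 4.85 in HOMO. Krt18 over Krt8 ran from 1.16 in PKI to 2.62 in MKI. Krt5 over Cdh1, a level of basal keratin relative to an epithelial junction gene, was 3.98 in WT and 3.98 in HOMO, 4.89 in PKI and 2.94 in MKI. The higher Krt5 of PKI was therefore accompanied by a higher Cdh1.

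**Figure D2:**
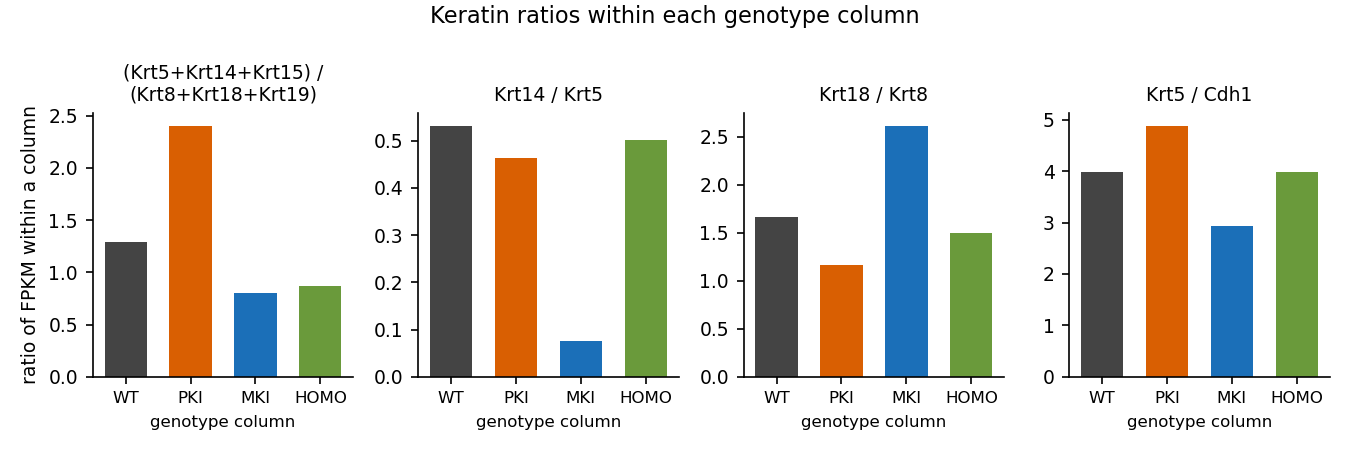
Ratios of FPKM within each genotype column (bars from 0, 1 value per column, no error because there are no replicates). The ratio of stratified to simple keratins is highest in PKI (2.41), and Krt14 over Krt5 is 0.0766 in MKI against 0.463 to 0.532 in the other columns.

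Gene length moved with the differences. RefSeq gene spans were available for 12333 of the genes tested (92.9%). Across these genes, which are not independent, Spearman's rho between span and the difference from WT was -0.28 in PKI, 0.34 in MKI and -0.15 in HOMO, given as a description. Krt5, Krt14, Krt15, Sfn, Krt8, Krt18 and Krt19 all fall in the shortest quintile of genes (up to 8518 bases). In that quintile 36.6% of genes were called lower in MKI than WT and the median was -0.67, and 2 of these 7 members called lower is not above the share of equally short genes. In the same quintile 37.0% of genes were called higher in HOMO than MKI, where 3 of the 7 members were, and 36.9% lower in MKI than PKI, where 4 were. Relative to the median of its quintile, Krt14 stayed low in MKI (-1.79) and so did Sfn (-0.48), while Krt5 (0.48), Krt18 (0.69) and Krt19 (1.297) lay above it. In PKI the same quintile had a median of 0.05 and 1.09% of genes called higher. Trp63, which spans 208 kb, lay 1.35 above the median of the longest quintile in PKI, Krt5 1.17 above that of the shortest, and Cdh1 (66.9 kb) 0.99 above that of its quintile. In MKI the median was 0.14 in the quintile of Trp63 and 0.11 in that of Cdh1, against -0.67 in that of Krt5. The ratios of Krt5 to Trp63 and to Cdh1 thus set a short gene against longer ones from quintiles with higher MKI medians. Span is a gene's length in the genome and not the length of its transcript. Its part in these differences and ratios was not tested.

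**Figure D3:**
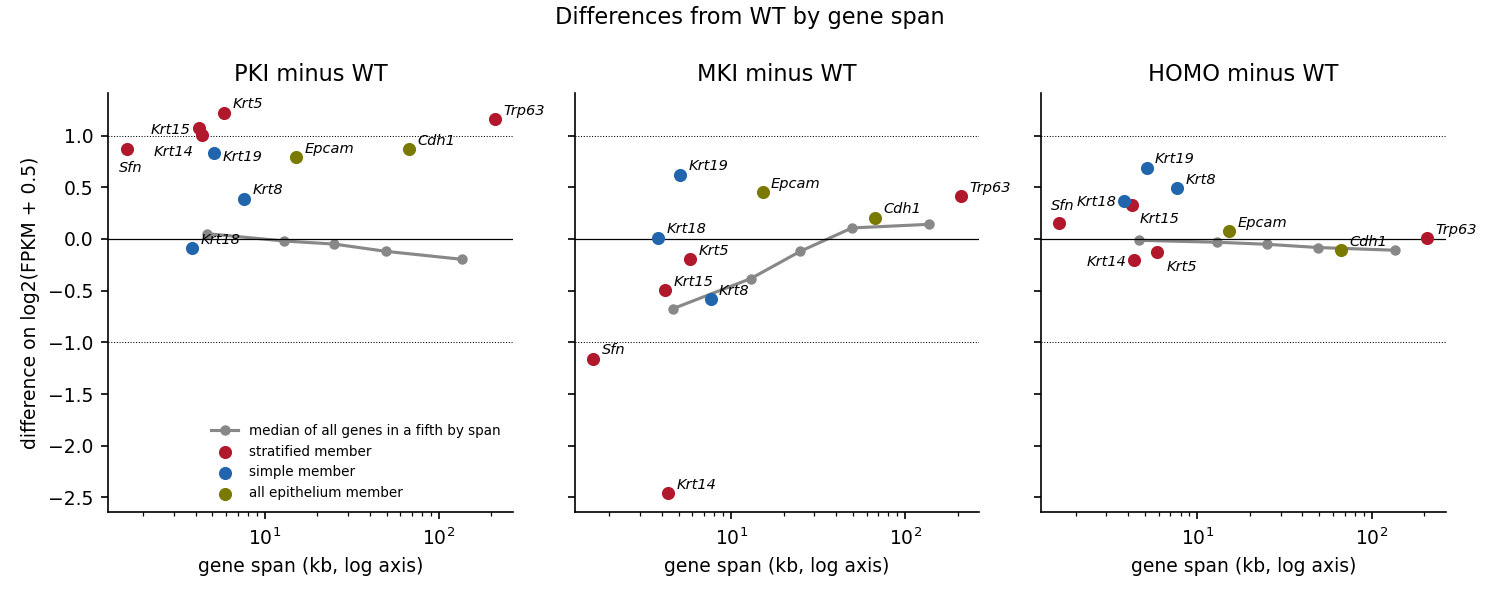
Difference from WT on log2(FPKM + 0.5) for each gene against its span in kb (log axis), 1 panel per knock-in column; grey points are medians of all genes in quintiles by span, dotted lines mark 2-fold. In MKI the grey line climbs from -0.67 for the shortest quintile to 0.14 for the longest, and Krt14 lies at -2.46.

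Other genes of stratified epithelium were taken from lists. Of 23 periderm and suprabasal genes 4 passed the filter, and 7 were listed at 0 in every column, among them the cornified envelope genes Flg and Ivl. All 4 were above WT in PKI (median 1.05), and 2 were called higher, where 0.7% of all genes were. The median of the 4 was -0.31 in MKI and 0.07 in HOMO. Gabrp, a GABA receptor subunit gene, stood at 2.69 FPKM in WT, against 9.38 in PKI, 3.55 in MKI and 5.85 in HOMO. It was called higher in PKI, where Krt17 (2.09 against 1.03 FPKM) was just above 2-fold in the plain ratio and below it with the pseudocount. Krt10, a keratin of suprabasal cells, stood at 2.33, 2.41, 2.00 and 1.19 FPKM, lowest in HOMO. Of 13 further keratins only Krt7, of simple and glandular epithelia, passed the filter, at 0.917, 2.21, 0.729 and 1.05 FPKM.

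Epidermal transcription factors had no common direction in PKI. Of the 15 that passed the filter, of 21 listed, 9 were above WT and 6 below in PKI, none 2-fold, with a median of 0.18 against -0.07 for all genes. Grhl3, a grainyhead factor of surface ectoderm, stood at 1.37 FPKM in WT, against 3.20 in PKI, 2.32 in MKI and 1.96 in HOMO. Msx2, a homeobox gene, stood at 2.15, 4.11 and 2.28 FPKM in WT, PKI and HOMO and was listed at 0 in MKI. Klf4, a barrier factor, was at 1.41 FPKM in MKI against 2.90 in WT. Gata3, of the same list, lay below WT in PKI, at 2.11 against 2.80 FPKM. Among 7 tested genes of placode signalling, Wnt6, a Wnt ligand of surface ectoderm, was the 1 called higher in PKI (9.86 against 3.61 FPKM) and the 1 called lower in MKI (1.01 FPKM). Sostdc1, a Wnt and BMP antagonist, was at 8.22 FPKM in PKI against 5.19.

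Junction and matrix genes lay nearer WT in PKI. Of 8 tested desmosome genes 6 were above WT in PKI, with a median of 0.16. Perp, a desmosome gene activated by p63, was the 1 called higher, at 10.3 FPKM against 4.81 in WT, 4.82 in MKI and 5.18 in HOMO. Dsp, the desmoplakin gene, was at 7.49 FPKM in PKI against 4.87. Of 17 tight and adherens junction genes 9 were above and 8 below, with a median of 0.04 whose sign depends on the scaling. Cldn4, a claudin gene, stood at 2.74, 5.67, 0.909 and 3.63 FPKM. Nectin1, of the same list, lay below WT in PKI, at 6.91 against 8.80 FPKM. Of 10 tested hemidesmosome and basement membrane genes 4 were above and 6 below, with a median of -0.08 whose sign also depends on the scaling. Itga3, an integrin of basal cells, was at 4.20 FPKM in PKI against 3.21, while Plec was at 9.13 against 12.1. Of 11 genes of epithelial splicing, traffic and proteolysis 7 were above and 4 below, with a median of 0.07. Esrp1, an epithelial splicing factor, was at 5.10 FPKM against 2.84, while Llgl2 was at 1.95 against 2.67.

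In MKI 19.1% of all genes were called lower, and 36.6% of those in the shortest quintile by span. Of the 11 splicing, traffic and proteolysis genes 10 were below WT and 5 called lower (median -0.76), among them Llgl2, a polarity gene (0.413 against 2.67 FPKM), and Spint2, a protease inhibitor (4.16 against 11.3 FPKM). Of the 17 junction genes 5 were called lower (median -0.29), including Cldn3 (0.0749 against 1.39 FPKM) and Cldn7 (0.595 against 2.59 FPKM). Of the 10 basement membrane genes 4 were called lower (median -0.39), including Cd151 (6.43 against 17.3 FPKM) and Lama5 (1.45 against 4.14 FPKM). The median over all genes was -0.11 in MKI. Of the 8 desmosome genes 1 was called lower (median -0.01), and of the 15 epidermal transcription factors 2 were (median -0.07). Both of these medians changed sign under other scalings. In HOMO none of the genes in these 4 lists and among the transcription factors was called, and medians lay between -0.07 and -0.01, near the -0.06 of all genes and, apart from the desmosome list, with a sign that depends on the scaling.

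**Figure D4:**
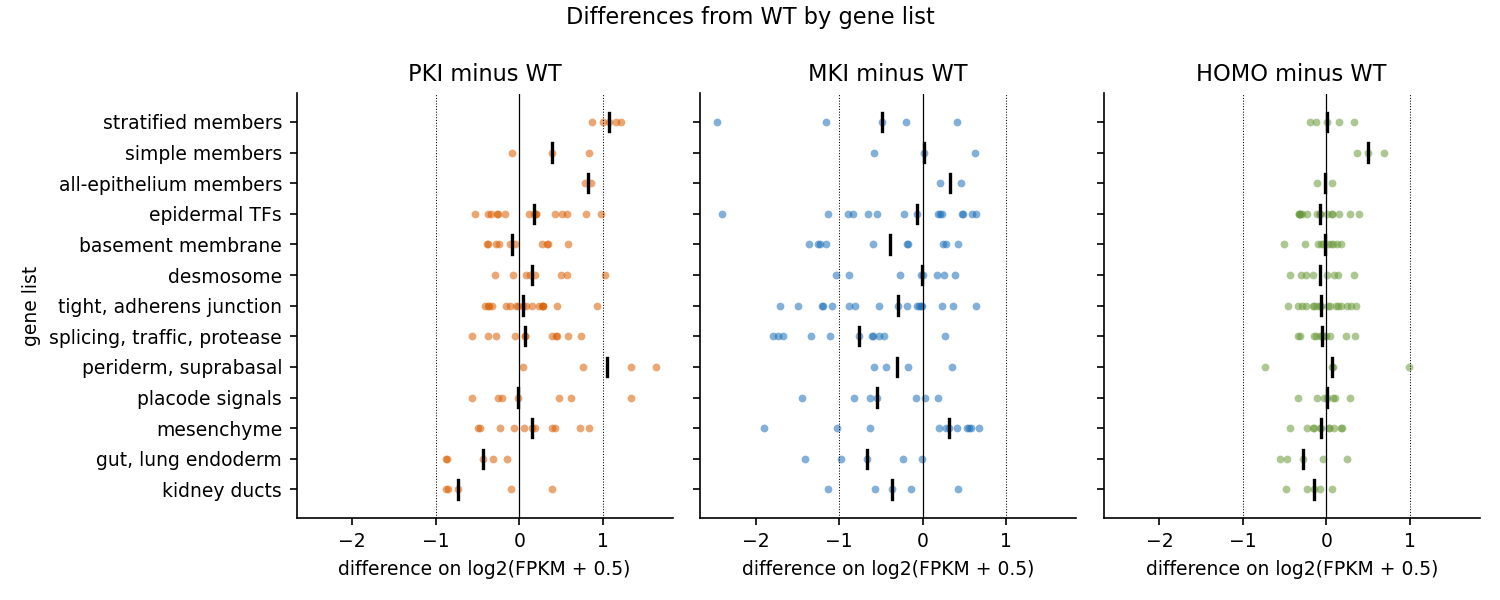
Difference from WT on log2(FPKM + 0.5) for each gene that passed the filter, by list and knock-in column; points are genes, black bars are list medians, dotted lines mark 2-fold. Stratified genes centre on 1.07 in PKI and the 4 periderm and suprabasal genes on 1.05. Desmosome, other junction, basement membrane and splicing lists centre between -0.08 and 0.16.

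Markers of other epithelia were looked at because they share Krt8, Krt18, Krt19, Epcam and Cdh1. All 5 tested gut and lung endoderm genes were below WT in PKI (median -0.43), with Hnf4a at 1.14 against 2.53 FPKM, and the list summed to 10.6 FPKM in WT, against 6.69 in PKI, 6.74 in MKI and 9.73 in HOMO. Of 5 kidney duct genes 4 were below WT in PKI (median -0.73), with Pax2 at 1.96 against 3.57 FPKM, and the list summed to 11.6 to 16.8 FPKM over the columns. Mesothelial genes, 4 of 6 past the filter, in the same order of columns, summed to 9.09, 9.22, 9.75 and 8.57 FPKM. The largest term was Wt1 (5.00, 4.07, 6.64 and 3.53 FPKM), while Upk3b was at 0.934 FPKM in MKI against 2.03 in WT. Of the 4 tested, 1 was called higher and 3 lay below WT in PKI. In MKI 2 lay above WT and 2 below, with none called. Trophoblast genes, 2 of 10 past the filter, summed to 3.02, 3.32, 3.27 and 4.84 FPKM, highest in HOMO. The HOMO sum came mostly from Hand1 (1.78 FPKM, against 0.930 in WT) and Prl3b1 (1.31 against 0.829 FPKM). Of the trophoblast list Prl3d1 was listed at 0 in WT and MKI, and Syna in all columns. The yolk sac genes Amn and Apoa4 were at or below 0.286 FPKM in every column, though the list, 2 of 8 past the filter, summed to 27.99 to 34.7 FPKM, mostly from Dab2, which other cells express too. Notochord genes, 3 of 5 past the filter, summed to 3.87 to 6.83 FPKM, with Noto listed at 0. In whole embryos a listed gene need not come from the tissue its list names, and Foxa2 was on both the endoderm and the notochord list. A lower list value is therefore not a measure of that tissue. The part of these cell types in the keratin values was not tested.

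Mesenchymal regulators, 11 genes, had a median of 0.15 in PKI, 0.32 in MKI and, with a sign that depends on the scaling, -0.06 in HOMO. Zeb1, a repressor of Cdh1, was at 31.7 FPKM in MKI against 19.1 to 21.4 elsewhere. Zeb2 was at 36.0 FPKM in MKI, against 22.3 in WT, 15.7 in PKI and 19.0 in HOMO. Both were highest in MKI, and both fall in the longest quintile by span, whose median in MKI was 0.14. Snai1, a repressor of the SNAI kind, was at 0.715 FPKM in MKI and at 3.85 to 4.54 FPKM in the other columns. Snai1 falls in the shortest quintile, where 36.6% of genes were called lower in MKI. The relation of these genes to Cdh1 was not tested.

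The genes most like Trp63 were sought by the distance between their 3 differences from WT and those of Trp63, over 11782 other genes. The nearest were Mrps25 (distance 0.25), a mitochondrial ribosome gene, Usmg5 (0.27), Gjb6 (0.28), an epidermal connexin gene, Cpne1 (0.29) and Rps27a (0.34). Epcam (0.37) and Cdh1 (0.38) stood at ranks 10 and 11, Krt5 (0.63) at rank 87 and Krt14 (2.89) at rank 11471. For Krt8 the nearest were Rps19bp1, Cd320, Slc10a3, Hoxa11 and Fbxo6, at 0.10 to 0.14, with Krt15 at rank 1541 and Krt18 at rank 2093. Only 3 differences enter each distance.

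In PKI the epithelial microRNAs past 10 RPM lay closer to WT than Trp63, Krt5, Krt14 and Krt15 did, which was not so in MKI and HOMO. Whole reads could be recovered from the RPM values (reads scaled to the library total), and ratios carry exact conditional 95% intervals that cover counting error only, not differences between embryos. miR-205-5p, the microRNA of stratified epithelium, stood at 1677 RPM in WT and 1856 in PKI, with 1419 in MKI and 1480 in HOMO. PKI was thus 111% of WT (interval 108 to 113%), MKI 84.6% (82.6 to 86.7%) and HOMO 88.2% (86.1 to 90.4%). miR-203-3p stood at 1135, 1288, 899.9 and 1142 RPM, or 114% of WT (111 to 117%) in PKI, 79.3% (77.0 to 81.7%) in MKI and 101% (97.8 to 104%) in HOMO. Both were highest in PKI and lowest in MKI over a range of 1.31-fold for miR-205-5p and 1.43-fold for miR-203-3p. miR-205-3p, the less abundant arm of the miR-205 hairpin (247 to 399 reads), was instead highest in MKI. It was at 137% of WT there (117.5 to 160.3%), 102% in PKI and 91.5% in HOMO. Under TMM scaling the HOMO values moved to 90.3% of WT for miR-203-3p and 79.2% for miR-205-5p, so that HOMO and not MKI was lowest for miR-205-5p.

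The miR-200 family was highest in HOMO in RPM. Its 9 arms summed to 4700 RPM in WT and 4899 in PKI, with 5768 in MKI and 6085 in HOMO, and HOMO was 129% of WT (128 to 131%). These values depend on the scaling: under TMM, HOMO was at 122% of WT for miR-200b-3p, 116% for miR-200a-3p and 106% for miR-200c-3p. With median-of-ratios factors, another scaling, miR-200b-3p was at 135% of WT in MKI and 124% in HOMO. For miR-200a-3p these were 119% and 118%, so that MKI and not HOMO was the higher for these arms. miR-200b-3p, the most abundant, stood at 2692, 2957, 3506 and 3659 RPM, and miR-200c-3p, from the other cluster, at 685.9, 722, 836 and 809 RPM. miR-200a-3p, of the second seed group, was at 89.0% of WT in PKI (86.3 to 91.9%) and 129% in HOMO (125 to 133%). miR-200a-5p, the other arm of that hairpin, lay below WT, at 59.9% in PKI (55.4 to 64.8%), 59.1% in MKI (54.4 to 64.2%) and 83.4% in HOMO. miR-429-3p was above WT in all 3 knock-in columns, between 124% and 131%. miR-141-3p rested on 82 to 156 reads per column, with wide intervals. None of the 10 arms of these families that passed 10 RPM was called at 2-fold against WT in any column, where 2.38% of 505 small RNAs were called in PKI, 19.8% in MKI and 19.2% in HOMO.

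**Figure D5:**
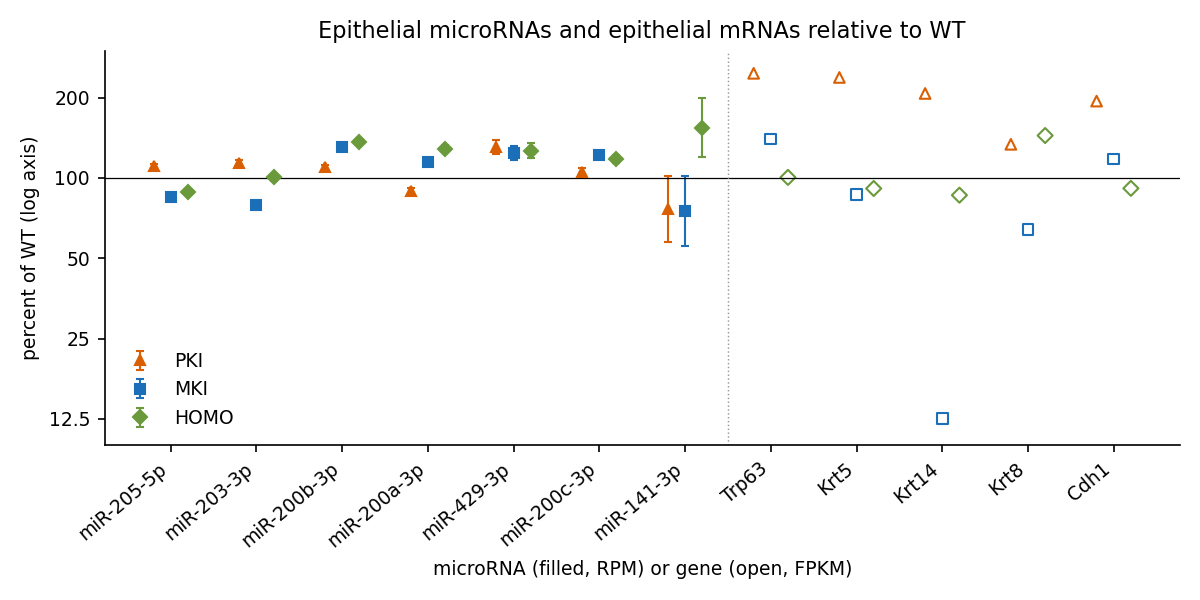
MicroRNAs (filled, RPM, with exact 95% counting intervals) and epithelial genes (open, FPKM, no interval) as percent of WT on a log axis, by knock-in column. miR-205-5p is at 111% in PKI, where Trp63 and Krt5 are 2.47-fold and 2.38-fold WT.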

How the data were processed

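The mRNA libraries came from oligo(dT)-bound RNA with dUTP in the second strand and paired-end reads, per the labels' protocols. The tools listed are cutadapt 1.9, HISAT2 2.0.4, StringTie 1.3.4d, DESeq2 and edgeR, with the build GRCm38, per the submitters' processing notes. Their roles, the annotation and the small-RNA protocol are unknown from the sources used here. The deposited mRNA values were taken as FPKM, since StringTie is the quantifier named and the header gives no unit. The authors' microRNA values are RPM, scaled to a fixed sum, and 100% of values were whole multiples of 1 read within 0.02 of a read, for 2395 small RNAs.

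Of 22036 entries with Ensembl IDs 22022 were matched to a symbol, and 40 entries sharing 20 symbols were summed. Genes at 1 FPKM or more in at least 2 columns were compared, on log2(FPKM + 0.5), with 2-fold as the threshold. With 1 column per group no spread could be estimated, so no test was run. The long non-coding table was not used. Alternatives were pseudocounts of 0.1 and 1, no filter, a filter of 5 FPKM, quantile normalization, TMM factors (edgeR 4.0.16) and scaling to the same sum. Named genes were up to 4 per list with the largest difference from WT among those at 2 FPKM or more in a column, the highest markers of other epithelia, and the 5 nearest to Trp63 and to Krt8. Further ones (Flg, Ivl, Krt16, Zeb1, Trp73, Amn, Apoa4, Noto, Prl3d1 and Syna) were chosen after their values were seen. 1 listed gene that the rule names is not reported here. Members and lists were chosen with earlier results of these data known. Steps were tested on simulated data.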

Additional observations from a re-analysis of the deposited data

Results flagged for a closer look

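Trp63 was singled out because the same contrast, paternal insertion present against absent, went opposite ways on the 2 maternal backgrounds. PKI minus WT was 1.16 and HOMO minus MKI was -0.41 on the log2 scale. These differences share no column, each rests on 1 column a side, and the difference between them was not tested. Epcam (0.79 and -0.38) and Cdh1 (0.87 and -0.32) had the same signs without reaching 2-fold. HOMO minus MKI had a median of -0.26 over all genes in the longest quintile by span, which holds Trp63, and of -0.19 over the quintile that holds Cdh1.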

How the results depend on the processing

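No paired analysis was possible because the columns carry no replicate number. With 1 column per genotype no replicate could be left out. The stratified median for PKI against WT fell just below 2-fold with a pseudocount of 1 (0.98) and with columns scaled to the same sum (0.99). The other 28 recomputed stratified medians and all 30 simple medians kept their side of the threshold under the scalings and pseudocounts tried. Of 60 member differences 5 changed sign under some setting: Krt18 (PKI against WT), Krt19 (HOMO against MKI, MKI against PKI), Krt5 (HOMO against MKI) and Trp63 (HOMO against WT). Of 48 list medians against WT 14 did, none beyond 0.25 in size. Genes past 2-fold in PKI against WT numbered 286, against 466 with a pseudocount of 0.1, 185 with a pseudocount of 1 and 127 with the filter of 5 FPKM. HOMO against WT gave 193, against 345 with no filter and 85 with the filter of 5 FPKM, and HOMO against PKI gave 381, against 184 with that filter. The share of these called higher in PKI against WT was 32.5%, 45.3% under quantile normalization, 46.0% under TMM, 23.7% at the same sum and 25.1% with a pseudocount of 0.1; in MKI against WT it was 6.01%, and 25.9% under quantile normalization. In HOMO against MKI it was 84.4%, and 65.7% under quantile normalization and 66.8% at the same sum; in MKI against PKI it was 13.4%, and 29.6% and 37.5% under these. Under TMM or median-of-ratios factors 28 microRNA percentages left their counting interval, with none reversed, and 50 did not. Quantile normalization moved the median of all genes by 0.23 in MKI against WT, and scaling to the same sum by 0.15.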

Other observations

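Trp53, which encodes the p53 protein related to p63, was at 11.9 FPKM in MKI, against 37.6 in WT, 36.9 in PKI and 40.2 in HOMO, so that only MKI stood apart. Its relative Trp73 was at 0.103 FPKM in MKI and at 0.563 to 0.756 FPKM elsewhere, below the filter. In the quintile by span that holds Trp53, 26.7% of genes were called lower in MKI than WT. Among mesenchymal regulators Twist1 was at 49.9 FPKM in PKI, 17.6 in MKI and 27.7 to 28.2 in the others. Twist2 was at 25.3 FPKM in PKI, 7.11 in MKI and 15.1 to 17.1 in the others. As for Krt14, PKI was highest and MKI lowest for Twist1 and Twist2. In MKI Twist1 differed from WT by -0.64, near the median of -0.67 in its quintile, the shortest. Twist2 differed by -1.03, in a quintile where 10.1% of genes were called lower.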
